A study of Mus musculus with 6 samples.

Results

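Ionotropic glutamate receptors are cation channels that open when glutamate binds. Each channel is assembled from several pore subunits of the same class: AMPA receptors from *Gria* subunits, NMDA receptors from *Grin* subunits, kainate receptors from *Grik* subunits, and the delta receptors from *Grid* subunits, which act mainly as adhesion molecules at synapses. Astrocytes are best known for clearing glutamate through transporters, but they also carry some of these channels, and the AMPA receptors of cerebellar Bergmann glia are the classic example. The genes described here are *Gria1*, *Gria2* and *Gria4* (AMPA), *Grin2c* and *Grin2b* (NMDA), *Grik2* and *Grik5* (kainate), *Grid1* (delta), and *Grip1*, which encodes a scaffold protein that binds the tail of the *Gria2* product. They were listed by name, 9 of the 32285 genes in the count tables, and their own values played no part in the choice of the cells.

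The cells were sorted with an antibody to ACSA-2, an astrocyte surface antigen, beside stains for the immune markers CD11b and CD45 and the oligodendrocyte marker O1, from the amygdala of young adult male wild-type C57BL/6N mice taken 90 min after behaviour. All tissue was dissociated in the presence of inhibitors of transcription and translation. The 16 listed mice belonged to 4 groups of 4: not shocked (NoFC), fear conditioned (FC), conditioned without recall (NoFR) and fear recall (FR). In the paper, recall took place a day after conditioning, and NoFR mice stayed in their home cages on that day. For NoFR mice the 90 min therefore do not follow a session in the chamber. NoFR and FR mice were also a day further from conditioning than FC mice, so comparisons between these groups span different days. Cells of several mice were pooled in each of 3 libraries, and antibody-borne hashtags were added to mark the mouse of a cell, which could be read for only part of the cells.

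The 3 libraries held 5287, 3631 and 4628 cell barcodes, with 107419453 unique molecular identifiers (UMIs, counted RNA molecules) in all. A pair of libraries shared between 3 and 8 barcode sequences. Barcodes with at least 20 UMIs of the glutamate transporter genes *Slc1a2* and *Slc1a3* and at most 3 of the mural genes *Vtn* and *Rgs5* were taken as astrocytes. Those with at least 10 mural and at most 5 transporter UMIs were taken as pericytes, the contractile cells that wrap capillaries. This gave 8757 astrocytes and 2260 pericytes, and 2529 barcodes fell in neither class. The labels call all cells astrocytes, and the paper's methods state that pericytes were removed by their *Pdgfrb*. The deposited barcodes used here still held them, and they were kept as a class. Levels are given as CPM, the summed UMIs of a gene per 1e6 UMIs of the class in that library. Each class matched its name in markers that had not defined it. The summed level of 8 other astrocyte markers, among them *Aqp4* and *Gja1*, ran from 7773 to 7824 CPM in astrocytes and from 72.3 to 112 CPM in pericytes. That of 8 other pericyte markers, among them *Pdgfrb* and *Kcnj8*, ran from 172 to 192 CPM in astrocytes and from 11886 to 12057 CPM in pericytes. The median astrocyte had 9891 UMIs and the median pericyte 5006.

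The genes lie on 7 chromosomes of the mouse (GRCm38, GENCODE vM21 annotation) and differ widely in size. *Gria1* (ENSMUSG00000020524) is at chr11:57011387-57330244 on the forward strand, *Gria2* (ENSMUSG00000033981) at chr3:80681450-80802835 on the reverse strand and *Gria4* (ENSMUSG00000025892) at chr9:4417896-4796234 on the reverse strand. *Grin2c* (ENSMUSG00000020734) is at chr11:115249169-115267243 and *Grin2b* (ENSMUSG00000030209) at chr6:135713233-136173511, both on the reverse strand. *Grik2* (ENSMUSG00000056073) is at chr10:49094833-49788766 and *Grik5* (ENSMUSG00000003378) at chr7:25009849-25072346, both on the reverse strand. *Grid1* (ENSMUSG00000041078) is at chr14:34820108-35583379 and *Grip1* (ENSMUSG00000034813) at chr10:119453830-120087261, both on the forward strand. Their spans run from 18.1 kb for *Grin2c* to 763 kb for *Grid1*.

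Upstream windows from RefSeq (GRCm38.p6) were found for 6 of the 9 genes, 8 windows in all. Shown here are the 250 bases before the start of *Gria2* and *Gria4*, AMPA subunit genes whose levels in astrocytes and pericytes were in opposite order, and of *Grin2c*, the shortest of the genes. They are written 5′ to 3′ on the strand of the gene, from chr3:80802836-80803085, chr9:4796235-4796484 and chr11:115267244-115267493, and capitals mark matches on either strand to the GC box GGGCGG, the E-box CANNTG or the nuclear factor I motif TTGGC.
Gria2: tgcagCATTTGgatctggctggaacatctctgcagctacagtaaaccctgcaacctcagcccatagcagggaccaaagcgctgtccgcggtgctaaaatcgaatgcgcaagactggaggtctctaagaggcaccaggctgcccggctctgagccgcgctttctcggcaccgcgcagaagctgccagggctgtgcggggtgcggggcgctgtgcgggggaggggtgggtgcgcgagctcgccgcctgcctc
Gria4: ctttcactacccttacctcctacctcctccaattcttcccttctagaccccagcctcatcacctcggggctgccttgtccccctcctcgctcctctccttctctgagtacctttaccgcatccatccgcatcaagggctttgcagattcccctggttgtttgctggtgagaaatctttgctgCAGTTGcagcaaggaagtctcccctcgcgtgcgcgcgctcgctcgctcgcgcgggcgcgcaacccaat
Grin2c: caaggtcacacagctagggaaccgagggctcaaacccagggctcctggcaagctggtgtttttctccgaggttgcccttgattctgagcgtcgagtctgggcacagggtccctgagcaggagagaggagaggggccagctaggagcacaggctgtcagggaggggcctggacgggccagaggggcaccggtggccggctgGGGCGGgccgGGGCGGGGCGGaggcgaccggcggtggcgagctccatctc
The *Grin2c* window held 3 GC boxes, the last 2 of which overlap, and the *Gria2* and *Gria4* windows held 1 E-box each and no GC box. The nuclear factor I motif was in none of these windows. Of 32817 windows of the same length in the same table, 32.7% held a GC box, 66.2% an E-box and 41.5% the nuclear factor I motif, so the motifs are common and a match is only a description of the letters.

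Astrocytes carried transcripts of every class of ionotropic glutamate receptor, and *Gria2* gave the most UMIs. *Gria2*, whose product sets the low calcium permeability of AMPA receptors, was found at 1450, 1536 and 1558 CPM in the 3 libraries. *Grid1*, the delta-1 subunit, was at 281, 296 and 299 CPM, *Grik2*, a kainate subunit that can form channels by itself, at 269, 276 and 287 CPM, and *Grin2c*, an NMDA subunit known from cerebellar granule cells and from astrocytes, at 248, 262 and 261 CPM. *Grin2b*, the NMDA subunit typical of young forebrain neurons, was at 218, 220 and 214 CPM. *Gria1*, another AMPA subunit, was at 159, 168 and 186 CPM and *Grip1* at 164, 165 and 170 CPM. *Grik5*, a kainate subunit that needs a partner to form a channel, was at 55.3, 59.9 and 60.8 CPM. *Gria4* was nearly missing, at 2.71, 1.88 and 2.84 CPM. The libraries lay close together for the abundant genes, and the highest library exceeded the lowest by the largest factor for *Gria4*.

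Levels of different genes were also ordered per length, as a description. UMIs count RNA molecules, so dividing by length can itself change the order. By CPM alone *Grin2b* had rank 5 and *Gria1* rank 6 among the 9 genes. Per kb of exon they had ranks 8 and 4. Per kb of annotated exon, *Gria2* led with 97.4 ± 3.69 CPM per kb (SD, n = 3 libraries), followed by *Grin2c* with 51.1 ± 1.56 and *Grid1* with 49.0 ± 1.60, whose libraries overlapped. *Gria1* came next with 28.2 ± 2.29 CPM per kb, then *Grik2* with 20.95 ± 0.656 and *Grip1* with 20.6 ± 0.417, which overlapped each other. *Grik5* had 11.4 ± 0.572, *Grin2b* 8.75 ± 0.111 and *Gria4* 0.393 ± 0.0829 CPM per kb of exon, with no overlap between these neighbours. Per kb of gene span, introns included, the short *Grin2c* passed *Gria2*, with 14.2 ± 0.434 against 12.5 ± 0.473 CPM per kb and no overlap. On that scale *Grik5* came next with 0.939 ± 0.0473 CPM per kb, and *Gria4* was last with 0.00655 ± 0.00138.

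The share of cells with at least 1 UMI was also highest for *Gria2*, but some other genes changed their order. *Grin2c* was found in 82.9% of astrocytes, *Grid1* in 79.3%, *Grin2b* in 73.5% and *Grik2* in 71.5% (means of 3 libraries). A *Gria2* UMI was found in 95.4 ± 0.648% of astrocytes (SD, n = 3 libraries), and an NMDA UMI of *Grin2b* or *Grin2c* in 92.5 ± 0.739%. A kainate UMI of *Grik2* or *Grik5* was found in 80.2 ± 0.558% of astrocytes. The median astrocyte held UMIs of 5 of the 9 genes. After thinning each cell to 4000 UMIs, which left 8024 astrocytes and 1709 pericytes, the NMDA share was 80.2 ± 1.08% and the median 4 of the 9. *Gria1* stood out from the other abundant genes in being found in few cells and in large amounts. Only 29.2 ± 2.03% of astrocytes had a *Gria1* UMI, but 1558 of 8757 astrocytes had at least 3 and the richest had 91. The richest 1% of astrocytes held 18.3% of all *Gria1* UMIs. For the other genes except the nearly missing *Gria4*, that share ran from 3.83% for *Gria2* to 11.99% for *Grip1*. It was 4.82% for *Grin2c* and 8.16% for *Grik2*.

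**Figure D1:**
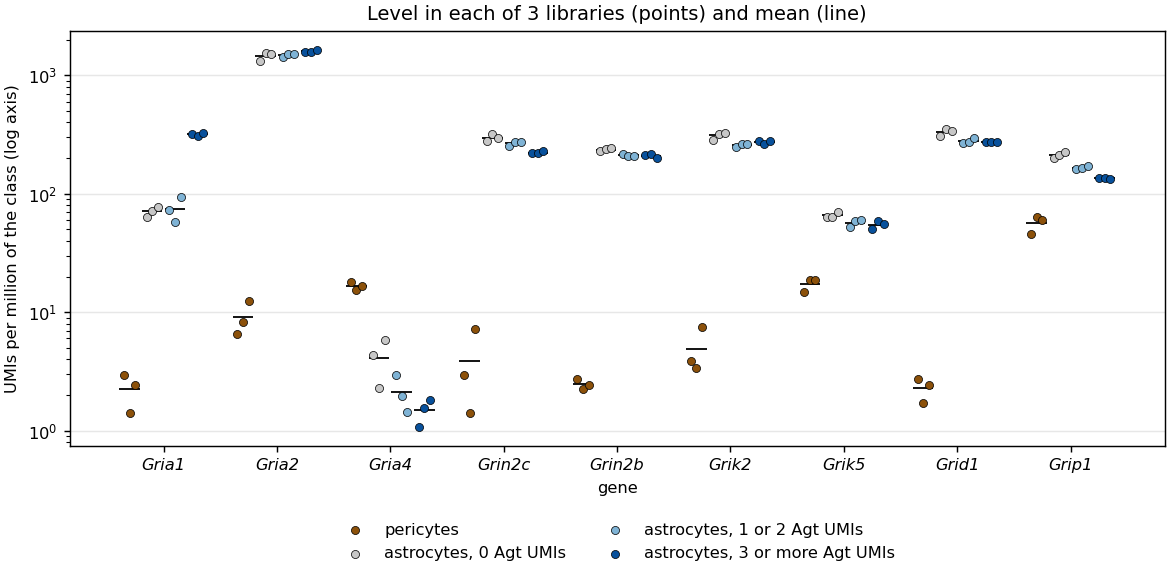
Level of the 9 genes (x axis) in CPM of the class (y axis, log scale) in pericytes and in astrocytes with 0, with 1 or 2 and with 3 or more *Agt* UMIs; points are the 3 libraries and lines their mean. *Gria4* is the only gene with its pericyte points above all astrocyte points, and *Gria1* is the only gene with the astrocytes of 3 or more *Agt* UMIs, at 309 to 328 CPM, far above the other astrocytes.

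Astrocytes were then set against pericytes of the same libraries, to ask which of these genes belong to the astrocytes among the sorted cells. Of the 9 genes, 8 were higher in astrocytes and 1, *Gria4*, was higher in pericytes (edgeR's quasi-likelihood test with library as a block, adjusted p under 0.05). Among all 15361 genes tested, 42.8% were called higher in astrocytes and 36.9% higher in pericytes, so a call by itself says little here. The median log2 difference was 6.27 over the 9 genes and 0.10 over all genes tested. The 9 genes were listed with earlier results of these data known, so their median describes these genes only and not the receptor family. Without TMM scaling, a scaling that sets aside the genes that differ most, the median over all genes was -0.11. P-values here measure the spread between 3 pools of mice.

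The AMPA pore subunits split between the classes. *Gria2* was at 6.56, 8.20 and 12.3 CPM in the pericytes of the 3 libraries, against 1450 or more in astrocytes, a log2 difference of 7.62 (SE 0.102, adjusted p = 6.9e-30 from edgeR). Only 337 of the 15361 genes had a larger difference in that direction. *Gria1* was at 2.94, 1.41 and 2.42 CPM in pericytes, a log2 difference of 6.41 (SE 0.129, adjusted p = 6.8e-26 from edgeR). *Gria4*, an AMPA subunit known for fast channels, went the other way, with 18.1, 15.5 and 16.6 CPM in pericytes and a log2 difference of -2.55 (SE 0.188, adjusted p = 1.1e-12 from edgeR). The libraries of the classes did not overlap for any of the 3 genes.

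The NMDA, kainate and delta subunits fell in 2 tiers. *Grid1* had a log2 difference of 7.18 (SE 0.120), *Grin2b* of 6.66 (SE 0.119), *Grin2c* of 6.27 (SE 0.137) and *Grik2* of 6.04 (SE 0.114), with edgeR adjusted p of at most 4.7e-25. In pericytes the highest library of these 4 genes was at 7.52 CPM, for *Grik2*. *Grik5* and *Grip1* were also higher in astrocytes but by much less. *Grik5* was at 14.7, 18.7 and 18.5 CPM in pericytes, a log2 difference of 1.98 (SE 0.0914, adjusted p = 2.5e-17 from edgeR). *Grip1* was at 45.3, 63.6 and 59.9 CPM in pericytes, a log2 difference of 1.79 (SE 0.0718, adjusted p = 8.9e-19 from edgeR).

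Droplets can take up free RNA of other cells, so the low levels in pericytes were compared with those of genes that pericytes should lack. The pericyte level of the 8 astrocyte markers was between 0.812% and 1.89% of their astrocyte level (mean of 3 libraries each). *Gria1* at 1.33 ± 0.507% (SD, n = 3 libraries), *Grin2c* at 1.499 ± 1.15%, *Grin2b* at 1.13 ± 0.107% and *Grik2* at 1.76 ± 0.754% lay within that range, and *Gria2* at 0.593 ± 0.177% and *Grid1* at 0.782 ± 0.197% lay below it. By these means the pericyte levels of the 6 genes were not above those of the markers. In library 3 alone, *Grin2c* at 2.77% and *Grik2* at 2.62% were above the highest value of any marker in any library, 2.36%, and 1 pericyte held 8 of the 57 *Grik2* UMIs. *Grik5* at 29.4 ± 2.44% and *Grip1* at 33.8 ± 5.63% were far above the markers. In the other direction, *Gria4* in astrocytes was at 14.7 ± 2.50% of its pericyte level, whereas the 8 pericyte markers lay between 0.0408% and 4.14%.

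The shares of cells followed the levels. *Grip1* was found in 14.4 ± 1.59% of pericytes and *Grik5* in 8.26 ± 1.22% (SD, n = 3 libraries), before thinning. *Gria4* was found in 111 of 2260 pericytes, or 4.91% (95% Wilson interval 4.09% to 5.88%, counting error only), and in 165 of 8757 astrocytes, or 1.88% (1.62% to 2.19%). After thinning to equal depth, the *Gria4* shares were 4.44 ± 0.435% of pericytes and 0.729 ± 0.0528% of astrocytes. The 19 pericytes with at least 3 *Gria4* UMIs held 84 of the 197 *Gria4* UMIs in pericytes, and none of them had a UMI of the oligodendrocyte precursor markers. Only 0.575% of all pericytes had such a UMI, so its absence from 19 cells says little. The pericyte class also held 151 to 209 CPM of 3 smooth muscle markers, 134 to 141 CPM of 4 endothelial markers and 25.4 to 48.3 CPM of 3 fibroblast markers, each above the astrocytes, whose highest values were 0.603, 4.94 and 14.2 CPM. Their part in the pericyte levels was not tested.

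Of the 229 *Gria4* UMIs in astrocytes, 164 came from 156 astrocytes with 1 or 2 each and 65 from 9 astrocytes with at least 3 each. Those 9 had a median of 32017 UMIs, and their summed level of 8 neuron markers was 459 CPM, against 31.8 CPM in the 156 and 13.2 CPM in the 8592 astrocytes without a *Gria4* UMI. Leaving out all cells with a UMI of a neuron or oligodendrocyte-lineage marker gave a log2 difference between astrocytes and pericytes of -2.93 for *Gria4*. That removed 2820 of 8757 astrocytes and 57 of 2260 pericytes.

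The other genes of the pathway were read from a list of 36: 10 further pore subunits, 14 auxiliary subunits that ride on the channels, 7 scaffold and trafficking proteins and 5 proteins of assembly and surface control. Of the 29 that passed the filter on low counts, 21 were higher in astrocytes and 3 higher in pericytes in the same test. Over all genes tested, 42.8% and 36.9% were. Genes nearly absent from 1 class passed the filter through the other and could only be called in that direction. Among them were *Grik4*, with 1 UMI in pericytes, and *Grin2a*, under 1 CPM in astrocytes. Among pore subunits, those higher in astrocytes included *Grin1*, *Grin3a*, *Grik1*, *Grik4* and *Gria3*. Few UMIs lay behind *Gria3*, 149 in astrocytes and 7 in pericytes. It was at 1.10, 1.03 and 2.91 CPM in astrocytes and at 1.13, 0 and 0.537 CPM in pericytes. Before TMM scaling its classes overlapped, and library 1 went slightly the other way. Those higher in pericytes were *Grin2a* and *Grik3*, while *Grin2d* passed neither way, and *Grin3b* was not tested. *Grin1*, the subunit that every NMDA receptor needs, was low, at 6.58, 7.26 and 6.22 CPM in astrocytes with 1 UMI in the pericytes of each library. *Grin2a* was at 11.3, 6.50 and 7.78 CPM in pericytes and at 0.521, 0.368 and 0.288 CPM in astrocytes, a log2 difference of -4.21 (SE 0.342, adjusted p = 8.4e-12 from edgeR). *Grik3* was at 7.02, 8.20 and 8.86 CPM in pericytes, a log2 difference of -1.74 (SE 0.253, adjusted p = 5.8e-07 from edgeR).

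Of the auxiliary subunits, 7 of the 8 tested were higher in astrocytes: *Cacng4*, *Cacng7*, *Cacng8*, *Shisa6*, *Shisa9*, *Gsg1l* and *Neto2*. *Cacng8*, an AMPA auxiliary subunit of the TARP family, had 4537 UMIs in astrocytes and 3 in pericytes. *Cacng4* had 5 in pericytes and *Gsg1l* and *Neto2* 2 each, so these genes too passed the filter through the astrocytes. The scaffold genes *Dlg1*, *Dlg2*, *Dlg4* and *Pick1* were also higher in astrocytes, and none of the 7 was called higher in pericytes. Of the assembly genes, *Frrs1l*, *Cpt1c*, *Abhd6* and *Porcn* were higher in astrocytes and *Sacm1l* higher in pericytes. *Cpt1c* was at 27.0, 34.1 and 30.9 CPM in astrocytes and at 26.3, 38.2 and 27.6 CPM in pericytes. Before TMM scaling these levels overlapped and library 2 went the other way, and its log2 difference of 0.22 (SE 0.0892, adjusted p = 0.029 from edgeR) is after TMM scaling. *Frrs1l* had a UMI in 0 of 2260 pericytes, which allows a share of pericytes with a UMI, at this depth, of up to 0.133% (3 counts of the total).

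**Figure D2:**
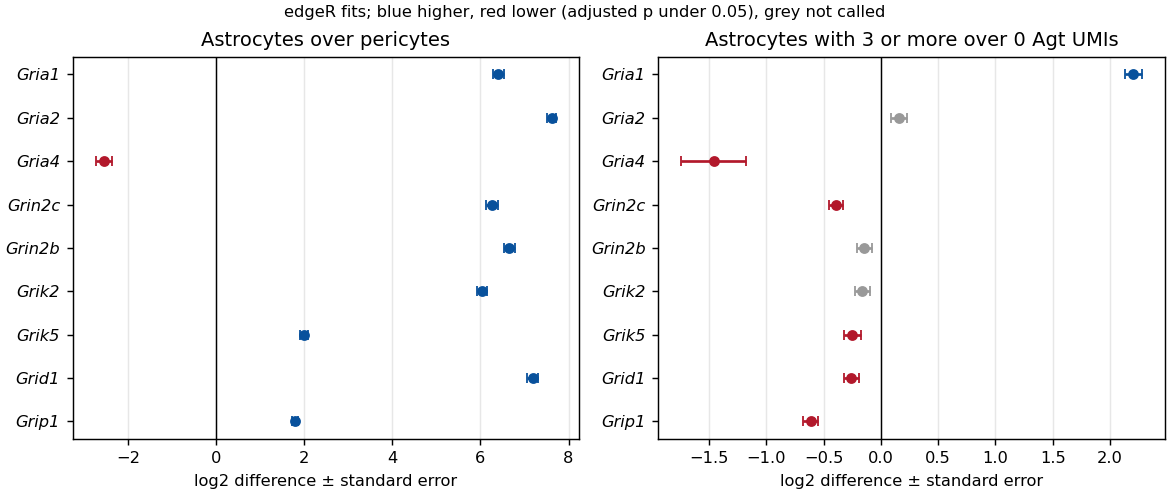
log2 differences (x axis) of the 9 genes (y axis) with their standard errors, astrocytes over pericytes (left) and astrocytes with 3 or more over 0 *Agt* UMIs (right), from edgeR. On the left 8 points are above 1.7 and *Gria4* is at -2.55; on the right *Gria1* is at 2.20, with the other 8 between -1.46 and 0.16.

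Astrocytes also differed among themselves. *Agt* encodes angiotensinogen, which in the brain is made mainly by astrocytes, and its level varies between brain regions. Astrocytes with at least 3 *Agt* UMIs (3236 cells) were set against those with 0 (2813 cells) within the same libraries. Of the 9 genes, *Gria1* rose with *Agt* and 5 fell (*Grip1*, *Grin2c*, *Grid1*, *Grik5* and *Gria4*), while *Gria2*, *Grin2b* and *Grik2* did not pass the test. Among all 14161 genes tested, 12.7% were called higher with *Agt* and 13.8% lower. The median log2 difference was -0.25 over the 9 genes and 0.0023 over all genes tested.

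*Gria1* was at 63.8, 71.8 and 77.3 CPM in the astrocytes with 0 *Agt* UMIs and at 321, 309 and 328 CPM in those with at least 3. The groups were far apart in every library, and the log2 difference was 2.20 (SE 0.0720, adjusted p = 3.0e-20 from edgeR), or 4.60-fold. Only 13 of the 14161 genes had a larger difference in that direction. It kept its direction and passed the test in all 13 alternatives, with log2 differences from 1.60 for astrocytes with at least 1 *Agt* UMI to 2.69 for at least 5. With mice in place of libraries as replicates it was 2.30 (adjusted p = 2.1e-10 from edgeR), and 15 of 16 mice had a higher *Gria1* level in their astrocytes with at least 3 *Agt* UMIs. The exception was FC mouse 3, with 119 against 166 CPM.

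The rise was graded and began late. With exactly 1 or 2 *Agt* UMIs, *Gria1* was still at 69.3 ± 14.8 and 81.6 ± 24.6 CPM (SD, n = 3 libraries), and both ranges overlapped that of the astrocytes without *Agt*, at 71.0 ± 6.75 CPM. It was at 143 ± 10.6 CPM with 3 to 5 *Agt* UMIs, 329 ± 29.9 with 6 to 10, 736 ± 21.4 with 11 to 20 and 966 ± 205 in the 79 astrocytes with 21 or more. From 3 *Agt* UMIs upwards the libraries of neighbouring bins did not overlap, and library 2 had the highest value of the last bin, at 1195 CPM. Seen per cell, between 31.5% and 37.4% of the astrocytes with at least 3 *Agt* UMIs had at least 3 *Gria1* UMIs, against 5.99% to 7.22% of those with 0. Of the astrocytes with at least 3 *Gria1* UMIs, 70.7%, 74.0% and 74.9% had at least 3 *Agt* UMIs in the 3 libraries, whereas 33.9%, 39.7% and 38.4% of all astrocytes did.

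**Figure D3:**
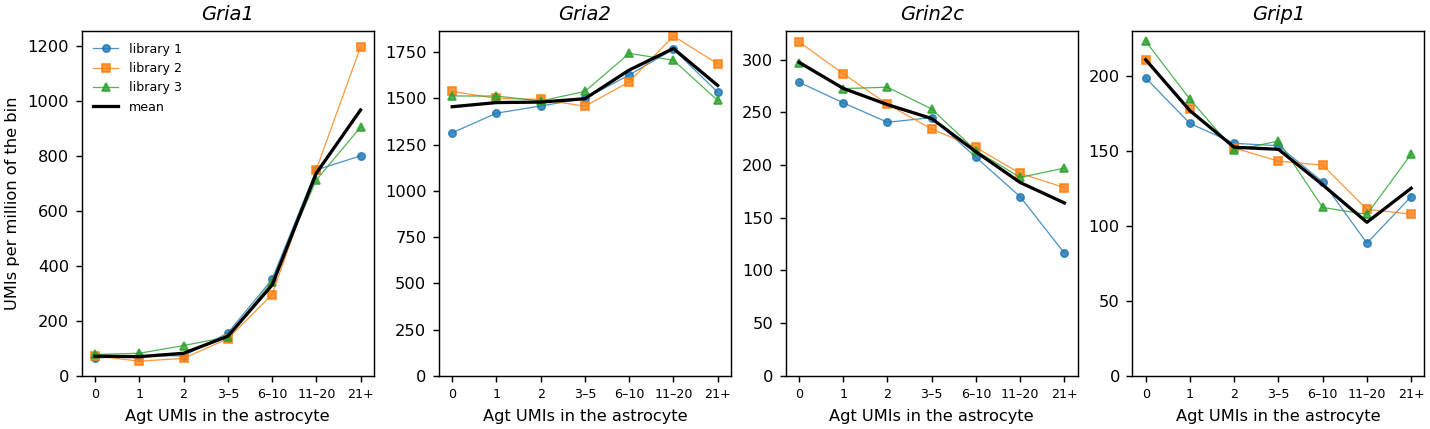
Level of *Gria1*, *Gria2*, *Grin2c* and *Grip1* in CPM (y axis, from 0) in astrocytes grouped by their number of *Agt* UMIs (x axis), in each library and as the mean. The mean of *Gria1* is 71.0 CPM without *Agt* and 966 CPM in the last bin, while that of *Grin2c* falls from 298 to 164 CPM and *Gria2* stays between 1455 and 1770.

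*Gria2* barely moved, at 1314, 1538 and 1514 CPM without *Agt* and at 1581, 1563 and 1631 CPM with at least 3 *Agt* UMIs. The log2 difference of *Gria2* between at least 3 and 0 *Agt* UMIs was 0.16 (SE 0.0662, adjusted p = 0.078 from edgeR). It passed with at least 5 *Agt* UMIs (0.22, adjusted p = 0.013 from edgeR). The make-up of the AMPA transcripts therefore shifted mainly through *Gria1*. Of all UMIs of *Gria1* to *Gria4*, *Gria1* took 4.63 ± 0.182% (SD, n = 3 libraries) in astrocytes without *Agt*, 4.78 ± 1.07% with 1 or 2 and 16.7 ± 0.192% with at least 3 *Agt* UMIs. *Gria2* took 94.9 ± 0.494%, 95.03 ± 1.07% and 83.2 ± 0.188% in the same order. In pericytes *Gria4* took 59.0 ± 5.97% of the few AMPA UMIs.

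**Figure D4:**
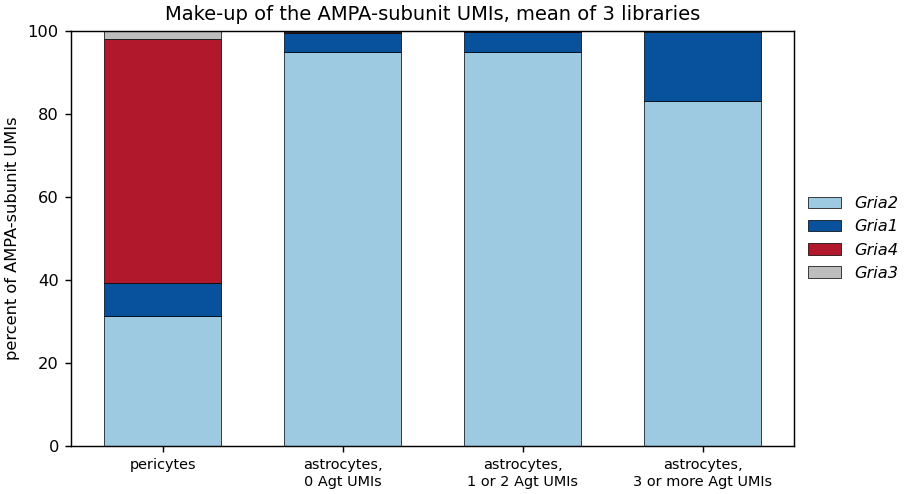
Share of each gene (colours) in the AMPA-subunit UMIs (y axis, percent, mean of 3 libraries) of pericytes and of astrocytes by *Agt* UMIs (x axis). *Gria2* fills 83.2% or more of every astrocyte bar, *Gria1* reaches 16.7% in the last, and *Gria4* fills 59.0% of the pericyte bar.

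The scaffold gene *Grip1* fell from 199, 211 and 223 CPM to 135, 136 and 134 CPM. The log2 difference was -0.61 (SE 0.0657, adjusted p = 1.6e-08 from edgeR), it passed in all 13 alternatives, and astrocytes with 1 or 2 *Agt* UMIs lay between, at 166 ± 3.88 CPM (SD, n = 3 libraries). *Grin2c* fell from 279, 317 and 297 CPM to 219, 221 and 228 CPM, a log2 difference of -0.39 (SE 0.0645, adjusted p = 2.2e-05 from edgeR) that also passed in all 13. Its fall went on along the *Agt* bins, to 183 ± 11.8 CPM with 11 to 20 *Agt* UMIs. For both genes the groups did not overlap.

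The changes of the remaining genes were small. *Grid1* was at 305, 355 and 342 CPM without *Agt* and at 272, 275 and 272 CPM with it, a log2 difference of -0.26 (SE 0.0651, adjusted p = 0.0030 from edgeR), and lost its call without library 2 or library 3 (adjusted p = 0.083 and 0.15). *Grik5* was at 63.7, 64.2 and 70.2 CPM and at 50.6, 58.4 and 55.3 CPM, a log2 difference of -0.25 (SE 0.0724, adjusted p = 0.010 from edgeR). *Grik5* lost its call under DESeq2 (adjusted p = 0.15), without library 3 (0.17) and with mice as replicates (0.56). *Grin2b* (log2 difference -0.15, SE 0.0649, adjusted p = 0.10 from edgeR) and *Grik2* (-0.16, SE 0.0661, adjusted p = 0.068) were not called. They were called lower in 4 and 5 of the 13 alternatives, among them the fits without library 1 (adjusted p = 0.0023 and 1.1e-05).

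*Gria4* had few UMIs on either side, 50, 16 and 46 in the astrocytes without *Agt* and 14, 18 and 21 in those with at least 3. The CPM were 4.34, 2.30 and 5.77 against 1.07, 1.57 and 1.83, and the log2 difference was -1.46 (SE 0.284, adjusted p = 0.00021 from edgeR). Of the 112 UMIs without *Agt*, 57 came from 8 of the 9 barcodes described above. The share of cells with a *Gria4* UMI after thinning was 0.651 ± 0.0577% without *Agt* and 0.798 ± 0.344% with it (SD, n = 3 libraries), which overlap. Leaving out cells with a neuron or oligodendrocyte-lineage marker UMI, 775 without *Agt* and 1172 with it, gave a log2 difference of -1.12 (adjusted p = 0.028 from edgeR).

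The groups by *Agt* also differed in other ways. The median mitochondrial share of UMIs was 2.39% to 2.52% without *Agt* and 1.91% to 1.96% with it, and 468 of 2813 against 29 of 3236 cells had at least 6% mitochondrial UMIs. With only barcodes of at least 100 genes and under 6% mitochondrial UMIs, the same 6 genes were called and *Gria1* had a log2 difference of 2.25. The summed level of the 8 neuron markers was 20.2 to 35.9 CPM without *Agt* and 9.31 to 10.4 CPM with it, and none of the 8 was at 0 in either group. That of the 8 astrocyte markers was 6376 to 6824 CPM and 8381 to 8629 CPM. Without cells that had a neuron or oligodendrocyte-lineage marker UMI, the log2 difference of *Gria1* was 1.72 (adjusted p = 2.3e-27 from edgeR). That left out many cells, 775 of the 2813 without *Agt* and 1172 of the 3236 with at least 3 *Agt* UMIs. The part of the astrocyte-marker levels in the result was not tested. The median depth was 8936 UMIs per cell without and 10306.5 with *Agt*, and at equal depth the log2 difference of *Gria1* was 1.98.

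Of the 36 other genes of the pathway, 28 were tested between the groups by *Agt*, and 3 rose and 11 fell. Over all genes tested, 12.7% rose and 13.8% fell, so 3 risers of 28 are no more than that share. Those that rose were the AMPA auxiliary subunits *Gsg1l* (log2 difference 0.46, SE 0.150) and *Shisa9* (0.17, SE 0.0647) and the lipid transferase *Porcn* (0.37, SE 0.0965). *Shisa9* was close to the threshold (adjusted p = 0.047 from edgeR). Its libraries overlapped, at 153, 135 and 158 CPM without *Agt* and 171, 155 and 167 CPM with at least 3 *Agt* UMIs. Those that fell included the pore subunits *Grin1* (-0.60, SE 0.171) and *Grik1* (-0.57, SE 0.186), and the auxiliary subunits *Cnih2* (-1.41, SE 0.424), *Neto2* (-0.75, SE 0.127), *Cacng8* (-0.38, SE 0.0773) and *Shisa6* (-0.30, SE 0.0720). *Cnih2* rested on 46 UMIs in 33 cells without *Agt* and 23 UMIs in 22 cells with it. A *Neto2* UMI was found in 7.18% of astrocytes without *Agt* and in 7.51% with it. At equal depth these *Neto2* shares were 3.78 ± 0.408% and 3.15 ± 0.365% (SD, n = 3 libraries), which overlap. The scaffold and trafficking genes *Dlg4* (-0.46, SE 0.0771), *Nsf* (-0.20, SE 0.0718) and *Dlg1* (-0.18, SE 0.0663) and the assembly gene *Frrs1l* (-1.17, SE 0.3996) fell as well, each at an edgeR adjusted p under 0.05. Of the pore subunits, *Gria3*, *Grin2d*, *Grin3a*, *Grik3* and *Grik4* were not called, and *Grin2a* and *Grin3b* were not tested.

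For the 4 genes with most astrocyte UMIs, the genes of most similar level over 12 sums (3 libraries by pericytes and astrocytes with 0, with 1 or 2 and with 3 or more *Agt* UMIs) were read as a description. Among 7469 genes, those nearest *Gria2* were *Ank*, *Fam228b* and *Pcyt1b*, those nearest *Grid1* were *Nol4*, *Ntm* and *Gpc5*, those nearest *Grik2* included *Smoc1* and *Thrb*, and those nearest *Grin2c* were *Slco1c1*, *Phkg1* and *Nr2e1*. Pearson's r of log2(CPM + 1) was between 0.9985 and 0.9998. The 12 sums share libraries, and pericytes and astrocytes lie far apart in them for each of these genes.

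The study's own comparison was between the behavioural groups. Hashtags named the mouse of 1852 astrocytes, 45 to 228 in each of the 16 mice, and the UMIs of each mouse were summed and given as TMM-scaled CPM. Of 11360 barcodes past the filters on genes and mitochondrial UMIs, 4886 had no hashtag called, 2062 were called doublets and 4412 singlets. Only 3010 of the singlets carried the hashtag of a listed mouse. The hashtags were weak: the strongest hashtag of the median astrocyte had 4 UMIs and the next 2. No gene of the 9 was called in a test of any difference among the 4 groups, with library as a covariate (edgeR's quasi-likelihood test). *Gria4* was too low to be tested. Of all 10113 genes tested, 0% were called, 414 had an unadjusted p under 0.05, and DESeq2 also called 0. In the 6 pairs of groups no gene was called either, with 356 to 629 genes at an unadjusted p under 0.05.

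*Gria1* had the lowest unadjusted p of the 8 tested genes. It was at 190, 143, 182 and 97.9 CPM in the 4 NoFC mice, at 177, 191, 98.02 and 176 in the FC mice, at 231, 320, 352 and 130 in the NoFR mice and at 123, 108, 261 and 243 in the FR mice. The NoFR mice were highest on average, with 258 ± 99.6 CPM (SD, n = 4 mice) against 153 ± 42.2 in NoFC, 160 ± 42.1 in FC and 184 ± 79.5 in FR, but every pair of groups overlapped. edgeR's test of any difference gave *Gria1* an unadjusted p of 0.017, and an adjusted p of 1.00 over all genes. The log2 difference of NoFR over NoFC was 0.81 (SE 0.256, adjusted p = 0.58 from edgeR). Without a filter on low counts, the same test called *Gria1* (adjusted p = 1.7e-07 from edgeR) as 1 of 103 genes. With each mouse left out, its unadjusted p from edgeR ran from 0.00032 without NoFR mouse 4 to 0.16 without NoFR mouse 2, and no adjusted p passed.

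Within library 1, which held 2 mice of each group, *Gria1* had a mean of 275 CPM in NoFR, 184 in FC, 167 in NoFC and 116 in FR. Library 3 had 97.9 CPM in its NoFC mouse, 241 over 2 NoFR mice and 243 in its FR mouse, and held no FC mouse. Library 2 had 182 CPM in its NoFC mouse, 137 over 2 FC mice and 261 in its FR mouse, and held no NoFR mouse. FR was thus lowest of the 4 groups in library 1, while in library 3 the FR mouse lay between the NoFR mice, at 352 and 130 CPM. The mean share of astrocytes with at least 3 *Agt* UMIs had the same order of groups as mean *Gria1*. It was at 47.8 ± 5.19% (SD, n = 4 mice) in NoFR, 38.8 ± 10.3% in NoFC, 40.6 ± 6.39% in FC and 41.8 ± 6.47% in FR. The groups overlapped, with 41.3% to 53.8% in NoFR and 28.75% to 52.3% in NoFC. Single mice could differ from that order: FC mouse 3 had a share of 46.2% with *Gria1* at 98.02 CPM, and NoFC mouse 1 had 33.3% with 190 CPM. The part of this share in the *Gria1* levels was not tested. Among only those astrocytes, *Gria1* was at 401 ± 134 CPM in NoFR, 281 ± 112 in NoFC, 286 ± 112 in FC and 301 ± 111 in FR.

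The other 7 tested genes were not called either, which does not show that their levels were the same in every group. The NoFC, FC, NoFR and FR mice had *Gria2* at 1556 ± 147, 1546 ± 46.1, 1572 ± 43.6 and 1593 ± 66.8 CPM (SD, n = 4 mice each). *Grid1* was at 292 ± 29.1, 301 ± 13.6, 286 ± 18.3 and 297 ± 27.8 CPM in the same order, and *Grin2c* at 248 ± 27.6, 264 ± 18.5, 233 ± 19.8 and 250 ± 8.34. *Grik2* was at 306 ± 63.1, 290 ± 30.2, 257 ± 32.5 and 283 ± 33.6, and *Grin2b* at 226 ± 23.3, 221 ± 20.9, 212 ± 9.99 and 199 ± 17.3. *Grip1* was at 182 ± 26.5, 175 ± 13.8, 162 ± 19.0 and 167 ± 5.10, and *Grik5* at 65.7 ± 9.41, 52.8 ± 10.2, 53.5 ± 12.7 and 63.2 ± 11.8. Their unadjusted p in edgeR's test of any difference ran from 0.26 for *Grik5* to 0.99 for *Grid1*. Their fitted log2 differences between pairs of groups lay between -0.30 and 0.19, the widest for *Grik5* (-0.30 for NoFR over NoFC, SE 0.182).

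**Figure D5:**
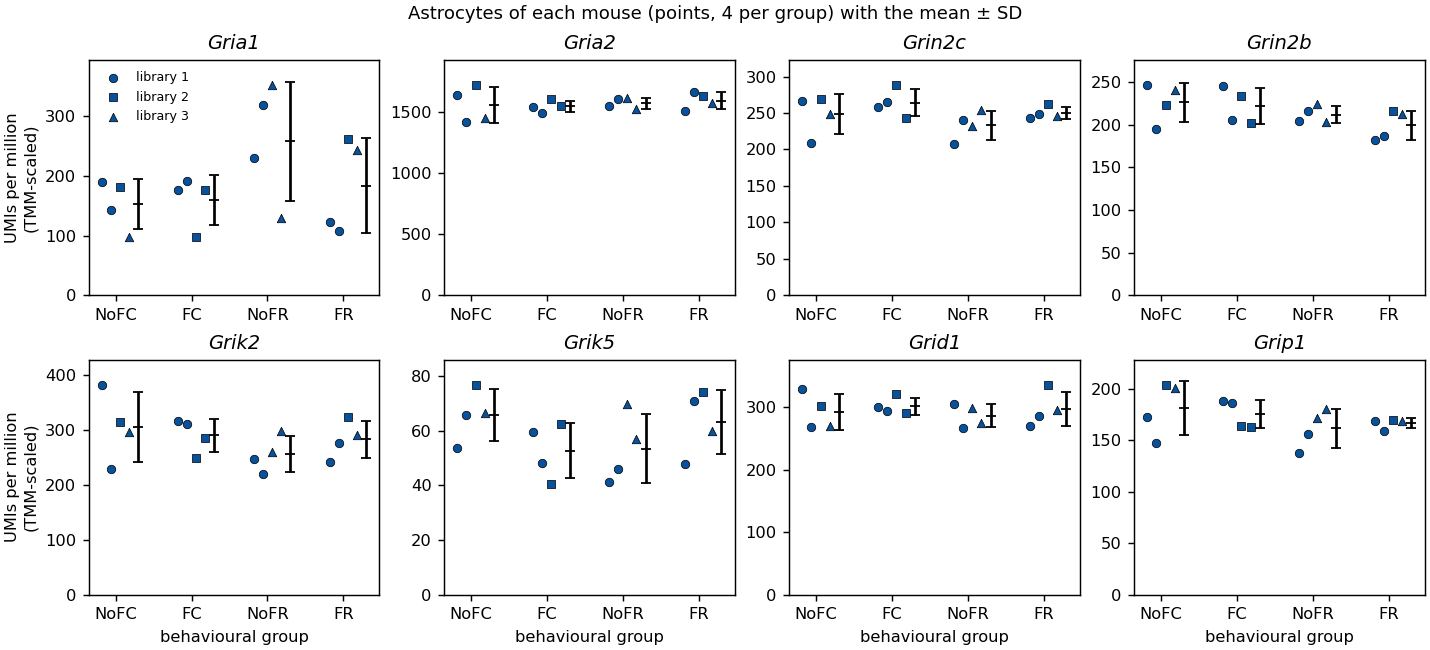
Level of 8 of the 9 genes in the astrocytes of each mouse (y axis, TMM-scaled CPM, from 0) by behavioural group (x axis); points are mice, their shape gives the library, and bars are the mean ± SD of 4 mice. *Gria1* spreads from 97.9 to 352 CPM and is highest on average in NoFR, while *Gria2* stays between 1415 and 1718 CPM.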

How the data were processed

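The deposited tables hold raw UMI counts per gene and cell barcode, made by the authors with CellRanger on mm10 (version 7.0.0 in the matrix header, 3.0 in the submitters' processing notes). The sources used here do not say whether intronic reads were counted. Counts were summed per library and class and tested with edgeR 4.0.16 (quasi-likelihood, TMM, low-count filter, library as block, which pairs classes of the same pool), with Benjamini-Hochberg adjustment over all genes tested. Doublets and cells without the hashtag of a listed mouse were not removed from these sums. Mice were assigned from the hashtag counts with HTODemux in Seurat 5.3.0 (quantile 0.99, hashtags of at least 1000 UMIs), singlets only. Standard errors beside edgeR values were derived as the log2 difference divided by the square root of the test's F. DESeq2 1.42.0 was an alternative. Its own standard errors between astrocytes and pericytes were larger for the 9 genes, for *Gria2* 0.237 against 0.102. The scripts were tested on simulated data. The 9 genes are named in every comparison. Of the other pathway genes, those called and the pore subunits are named, and for 4 members the 3 genes of most similar level, except for a few that are not reported here. Members and lists were chosen with earlier results of these data known. Intervals and floors cover counting error only.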

Additional observations from a re-analysis of the deposited data

Results flagged for a closer look

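In 2 of the 36 groups of 4 mice examined, 1 mouse stood apart from the others by Dixon's test, which chance does in about 1 group in 20. *Gria1* was at 98.02 CPM in the astrocytes of FC mouse 3, below the other FC mice at 176 to 191 CPM. *Grip1* was at 159 CPM in FR mouse 2, below the other FR mice at 169 to 170 CPM.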

How the results depend on the processing

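All alternatives that tested a gene kept the direction and call of the 9 genes between astrocytes and pericytes. With mice in place of libraries as replicates *Gria4* was not tested, so 0 genes of the 9 were higher in pericytes, and 6391 of all genes were called in place of 12232. By *Agt*, 3746 genes were called, 1738 with DESeq2, 2401 at equal depth, 791 with mice as replicates and 2408 to 4006 with each library left out. *Gria1* was the gene that rose, joined by *Gria2* (2 genes) without a low-count filter or with at least 5 *Agt* UMIs, and 3 to 7 genes fell with each library left out. Without the replicate block for library, 12297 and 3302 genes were called, and the same numbers of the 9 genes, 1 up and 5 down, by *Agt*. Among behavioural groups, 103 genes, *Gria1* among them (1 of the 9, in 3 pairs), were called without a filter, and 0 to 22 with each mouse left out. The cause of these changes was not tested. At equal depth the shares of astrocytes with a UMI were 23.4% for *Gria1*, 97.0% for *Gria2*, 0.729% for *Gria4*, 60.5% for *Grin2c*, 51.4% for *Grin2b*, 54.2% for *Grik2*, 20.3% for *Grik5*, 60.2% for *Grid1* and 33.1% for *Grip1*. The hashtag minimum of 100 UMIs was added after seeing the data. Few UMIs limit *Gria4*, and 45 astrocytes in the smallest mouse limit the behavioural comparison.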
